A study of Drosophila melanogaster with 8 samples.

Results

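The genes that encode the proteins of the insect cuticle and of the eggshell were followed through AGO2 peak lists of Drosophila melanogaster Kc cells. They were taken by symbol, as every protein-coding gene whose symbol begins with Cpr, Lcp, Ccp84A or Twdl, or with Vm or Cp followed by a digit, and 134 of 13968 annotated protein-coding genes met this rule. The 134 genes were 70 Cpr genes, 15 Lcp genes, 7 Ccp84A genes, 25 Tweedle genes, 5 vitelline membrane genes, 9 chorion genes and 3 genes that share only the letters of the name. These last 3 are Cpr itself (cytochrome P450 reductase), Cp190 (a chromatin insulator protein) and Cp110 (a centriolar protein), so 131 genes encode structural proteins. A gene was counted as having a peak where a peak overlapped it or lay within 500 bp.

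Argonaute2 (AGO2) is the effector of RNA interference in flies and is also found on chromatin, where it was mapped here by ChIP-seq. All samples were Kc167 cells, a female line derived from embryos, which were either mock-treated or treated with 10 µM triptolide for 60 min. Triptolide blocks initiation of transcription, and the question behind the design was whether AGO2 on chromatin depends on ongoing transcription. The series held 8 samples, namely 2 AGO2 immunoprecipitations and 2 inputs for each treatment. Each of the 4 lists holds the peaks that MACS2 called in 1 immunoprecipitation against its input, and the lists held 1055 and 1919 peaks in mock replicates 1 and 2 and 5594 and 5873 peaks in triptolide replicates 1 and 2. All samples are of 1 cell line, no label says that replicates were separate cultures, and the depth of the libraries is unknown, so list length cannot be told apart from depth. The files hold no expression values, and whether any of these genes is transcribed in Kc cells was not measured.

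The cuticle is a layer of chitin fibres and protein that epidermal cells lay down at each stage of fly development. Cpr, Lcp and Ccp84A proteins share a chitin-binding motif, the Rebers and Riddiford consensus, while Tweedle proteins form a separate family that affects body shape. The eggshell is made by the follicle cells of the ovary, which first secrete the vitelline membrane proteins and then the chorion proteins. The main chorion genes lie in clusters on the X chromosome and on the left arm of chromosome 3, and follicle cells amplify both clusters before they transcribe them. Most genes of these families are short, have few exons and stand in tandem groups of related copies.

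The DNA under the peaks is shown for the 6 genes whose peaks rank highest in the triptolide lists, with its base composition. The sequences are from the Release 6 genome (dm6, BDGP6), on the strand of the gene, 5′ to 3′. Capitals run from the summit (the base of highest signal) of one triptolide replicate to the summit of the other, with 50 bases on either side in lower case. Every base printed lies in coding sequence.
Vm34Ca: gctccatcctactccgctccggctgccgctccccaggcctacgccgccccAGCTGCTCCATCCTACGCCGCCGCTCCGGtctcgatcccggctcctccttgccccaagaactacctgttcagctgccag
Cpr92F: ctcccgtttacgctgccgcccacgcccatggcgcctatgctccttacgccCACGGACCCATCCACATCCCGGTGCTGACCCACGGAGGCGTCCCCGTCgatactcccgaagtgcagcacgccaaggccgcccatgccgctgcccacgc
TwdlQ: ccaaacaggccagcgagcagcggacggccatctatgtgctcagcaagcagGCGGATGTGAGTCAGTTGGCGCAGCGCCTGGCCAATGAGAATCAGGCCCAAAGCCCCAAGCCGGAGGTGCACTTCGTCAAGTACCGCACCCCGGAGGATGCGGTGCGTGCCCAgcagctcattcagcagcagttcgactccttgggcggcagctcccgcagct
Cp19: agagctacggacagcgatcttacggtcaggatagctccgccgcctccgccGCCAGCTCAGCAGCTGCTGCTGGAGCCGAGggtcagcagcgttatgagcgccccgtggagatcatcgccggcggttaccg
Cp15: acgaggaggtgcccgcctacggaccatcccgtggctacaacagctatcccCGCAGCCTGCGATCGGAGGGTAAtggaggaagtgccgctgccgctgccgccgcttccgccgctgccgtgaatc
Cpr62Bc: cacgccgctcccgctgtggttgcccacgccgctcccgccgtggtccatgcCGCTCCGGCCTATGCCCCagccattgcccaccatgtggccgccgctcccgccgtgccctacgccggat
The stretch of Vm34Ca is 2L:13411334-13411462 on the minus strand and has a GC content of 69.0%. That of Cpr92F is 3R:20671422-20671569 on the plus strand, at 69.6%. TwdlQ is shown over 3R:26692780-26692992 on the minus strand, at 63.8%. The 2 chorion stretches are 3L:8730076-8730205 for Cp19, at 66.2%, and 3L:8728728-8728850 for Cp15, at 67.5%, both on the plus strand. Cpr62Bc, at 3L:1840863-1840980 on the minus strand, was the richest of the 6 at 74.6%. For comparison, the coding sequence of all protein-coding genes had a median GC content of 53.8%. That value is for whole coding sequences, whereas the stretches were placed at summits. The whole coding sequences of the same 6 genes, in the order shown, had 66.4%, 63.6%, 57.9%, 63.0%, 61.8% and 64.6%.

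AGO2 peaks at cuticle and eggshell genes were nearly absent from the mock lists and frequent in the triptolide lists. In mock replicates 1 and 2, 2 and 2 of the 134 genes had a peak, which is 1.49% in each list (Wilson 95% interval 0.410 to 5.28%). Among all protein-coding genes, 5.85% had a peak in mock replicate 1 and 10.0% in mock replicate 2. In triptolide replicates 1 and 2, 30 and 36 of the 134 genes had a peak, or 22.4% (16.2 to 30.2%) and 26.9% (20.1 to 34.9%). The share of all protein-coding genes was 31.5% in triptolide replicate 1 and 32.0% in triptolide replicate 2. The cuticle and eggshell genes thus lay below all genes in each of the 4 lists, with gaps of −4.36 and −8.53 percentage points for the mock replicates and of −9.08 and −5.10 for the triptolide replicates.

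Averaged over replicates, mock-treated cells had a peak at 1.49% ± 0 (SD, n = 2) of these genes and triptolide-treated cells at 24.6% ± 3.17 (SD, n = 2). Triptolide exceeded mock by 23.1 percentage points of genes (exact permutation test over the 4 lists, two-sided, p = 0.333, which is the lowest p attainable here). Both triptolide lists lay above both mock lists. The ratio of the mean shares was 16.5, against 4.00 over all protein-coding genes. It rests on 2 genes in each mock list. A ratio of this size was not particular to these genes. Among the comparison lists described below it was 16 for ribosomal protein genes, 18 for receptor genes and 11.5 for further cuticle and eggshell genes. In percentage points the cuticle and eggshell genes and all protein-coding genes rose by a like amount. The mean gap to all genes stood at −6.44 ± 2.95 (SD, n = 2) for mock lists and at −7.09 ± 2.81 (SD, n = 2) for triptolide lists, which differ by −0.645 (exact permutation test, two-sided, p = 0.667). This last difference is within the spread between replicates, and its sign depends on the alternative used. Against genes spanning up to 2 kb, which are closer to these genes in length, the gaps were 0.697 and −0.818 in mock and 2.60 and 7.28 after triptolide, so that both triptolide lists lay above both mock lists, by 5.00 percentage points on average (exact permutation test, two-sided, p = 0.333).

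List length moved with this result, and its part was examined by shortening the lists. With the 1055 highest-scoring peaks of each list, 2 and 0 genes had a peak in mock and 5 and 7 after triptolide, so the difference fell to 3.73 percentage points. All protein-coding genes then stood at 5.85% and 6.14% in mock and 8.66% and 8.46% after triptolide. With peaks at a −log10 q-value of at least 5, the lists held 891 and 1626 peaks in mock and 1604 and 1454 peaks after triptolide. At this cutoff 0 and 1 of the 134 genes had a peak in the mock replicates and 8 and 12 in the triptolide replicates. The means then differed by 7.09 percentage points, while all protein-coding genes stood at 5.03%, 8.82%, 12.4% and 11.0% in the 4 lists. The direction was the same in both settings, with a smaller size. Only the first makes the lists equally long, and mock replicate 1 remained the shortest list in the second.

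**Figure D1:**
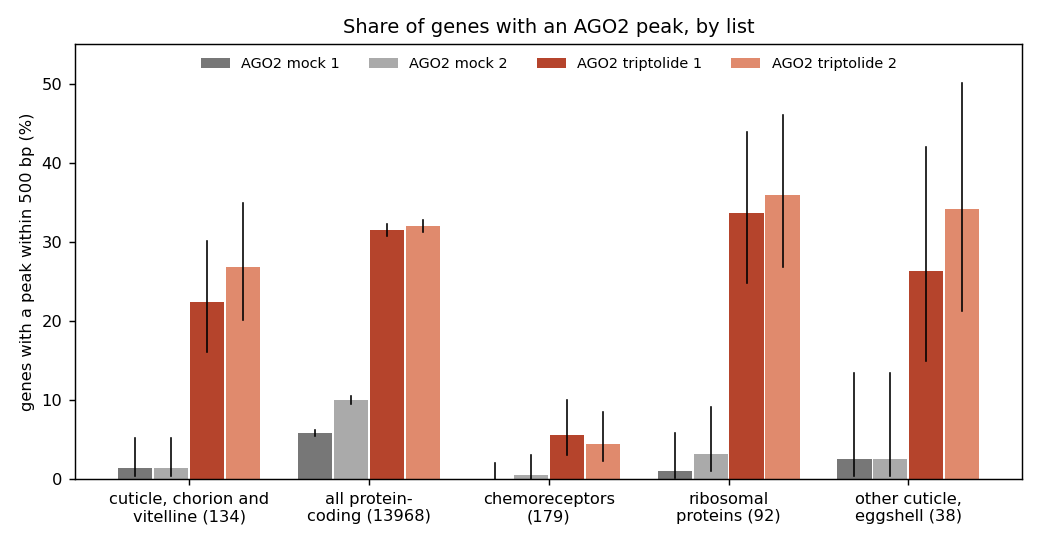
Share of genes with an AGO2 peak within 500 bp (vertical axis, percent) in each of the 4 lists, for the cuticle, chorion and vitelline membrane genes, all protein-coding genes and 3 comparison lists, with the number of genes in parentheses. Bars are single lists and lines are Wilson 95% intervals, which cover counting error over genes only. The cuticle and eggshell genes stood at 1.49% in both mock lists and at 22.4% and 26.9% in the triptolide lists.

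Peaks present in both replicates of a treatment were counted next. No gene of the 134 had a peak in both mock lists, against 5.51% of all protein-coding genes. A peak in both triptolide lists was found for 24 genes or 17.9% (12.3 to 25.3%), against 22.5% of all genes. Of these, 23 had no peak in either mock list, which is 17.2% of the 134 genes, and the same pattern held for 17.3% of all genes, so the share that appeared only after triptolide in both replicates was close to the background. The opposite pattern, both mock lists and no triptolide list, was seen in 0 of the 134 genes and in 1.17% of all genes. A further 6 genes had a peak only in triptolide replicate 1 and 12 only in triptolide replicate 2, and 89 genes had no peak in any list. In 23 of the 24 genes with a peak in both triptolide lists, the peaks of the replicates overlapped each other, and the exception was the P450 reductase gene Cpr.

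**Figure D2:**
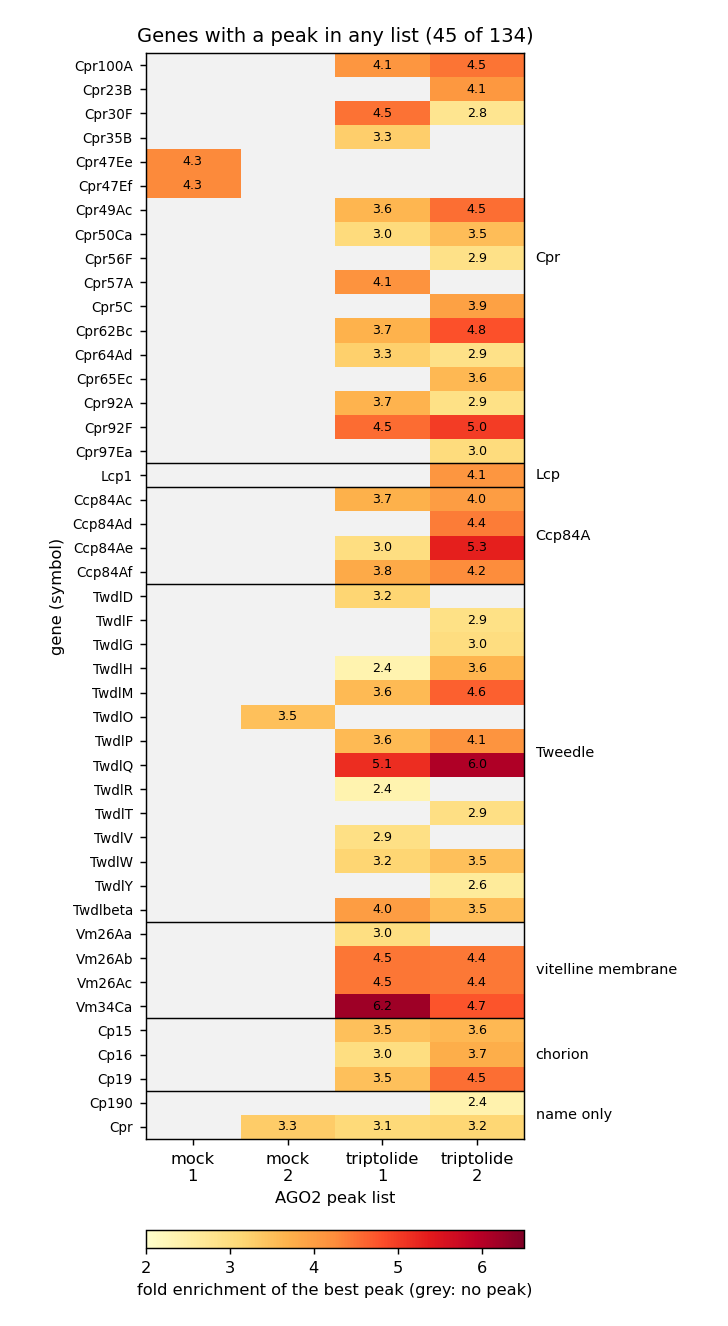
Fold enrichment over local background of the best AGO2 peak (colour and printed value) at each of the 45 genes with a peak in any list, by family (rows) and by list (columns). Grey cells had no peak. The 2 mock columns are filled at 4 genes and the 2 triptolide columns at 30 and 36.

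The share of genes with a peak varied from family to family. Among all protein-coding genes it was 31.5% and 32.0% in triptolide replicates 1 and 2, and 22.5% in both. All 5 vitelline membrane genes lacked mock peaks, 4 and 3 of them had a peak in triptolide replicates 1 and 2, and 3 had one in both. Those 3 include Vm26Ac, counted only through the peak of its neighbour Vm26Ab, so they are not independent. By summits in their own coding sequence, 3 and 2 of the 5 were counted. Of the 7 Ccp84A genes, 3 and 4 had a peak and 3 had one in both triptolide lists. Of the 9 chorion genes, the same 3 had a peak in each triptolide list. The 25 Tweedle genes had 9 and 10 with a peak and 6 in both triptolide lists. The 70 Cpr genes, which form the largest family, had 10 and 13 with a peak and 8 in both triptolide lists, or 11.4% (5.91 to 21.0%). The 15 Lcp genes had 0 and 1 and none in both lists (0%, up to 20.4%). With so few genes in most families the intervals are wide, from 23.1 to 88.2% for the vitelline membrane genes, and overlap between most families.

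Vm34Ca, a vitelline membrane gene on the left arm of chromosome 2, had the highest-ranking peaks of all 134 genes. Its peak covered 2L:13411232-13411623 in triptolide replicate 1, with a fold enrichment of 6.21 over local background, and 2L:13411203-13411627 in triptolide replicate 2, with a fold enrichment of 4.75. Ranked by score within their lists, where 100% is the highest peak, these peaks stood at 99.2% and 98.7%. The summits lay at bases 202 and 174 of a coding sequence of 360 bases, and the gene had no peak in either mock list. At the 26A locus, Vm26Ab carried a peak over its coding sequence in both triptolide lists, with folds of 4.45 and 4.43 and ranks of 70.6% and 72.3%. The same peak lies within 500 bp of Vm26Ac, which has no peak over its own body and is counted through its neighbour. Vm26Aa, the third gene of the locus, had a peak in triptolide replicate 1 only, with a fold of 2.95 and a low rank of 9.51%. Vm32E was the only vitelline membrane gene with no peak.

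The chorion genes split by locus. In the cluster on the left arm of chromosome 3 (3L:8726791-8732599, from Cp18 to Cp16), Cp15, Cp19 and Cp16 had peaks in both triptolide lists and Cp18 in none. Cp19 had the highest mean rank of the cluster, 83.8%, with folds of 3.49 and 4.53 and ranks of 71.9% and 95.7%, and its summits lay at bases 159 and 130 of 522 coding bases. Cp15, which ranked above Cp19 in triptolide replicate 1 and below it in triptolide replicate 2, had folds of 3.49 and 3.60, ranks of 79.0% and 72.3%, and summits at bases 203 and 181 of 348. The peak of Cp16 was different in kind, since its summits lay 273 and 198 bp upstream of the start of the gene, outside coding sequence, with folds of 2.98 and 3.75. None of the 5 genes of the X chromosome cluster (Cp7Fa, Cp7Fb, Cp7Fc, Cp36 and Cp38) had a peak in any list. The median coding GC content was 62.6% in the first cluster and 57.8% in the second, and the median of the richest 300 bp of each gene was 66.5% and 62.7%. Gene by gene, coding GC content did not follow the peaks. Cp18 and Cp38, without a peak, had 63.4% and 63.6%, above Cp15 (61.8%), Cp19 (63.0%) and Cp16 (62.1%). Also without a peak, Cp36, Cp7Fa, Cp7Fb and Cp7Fc were lower, at 61.3%, 57.8%, 54.8% and 53.7%.

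Among the Tweedle genes, TwdlQ ranked highest and stands apart from the main cluster on the right arm of chromosome 3. Its peaks covered 3R:26692656-26693212 and 3R:26692695-26693215 with folds of 5.15 and 6.05, and its summits lay at bases 542 and 430 of 738 coding bases. In the cluster of 12 Tweedle genes from TwdlM to TwdlD (3R:26619118-26641054), TwdlM, TwdlP and TwdlH had a peak in both triptolide lists. TwdlR was counted in triptolide replicate 1 through the peak of its neighbour TwdlH, and TwdlD had a peak of its own in that replicate. The same cluster held the only Tweedle gene with a mock peak, TwdlO. TwdlB, TwdlJ, TwdlK, TwdlL and TwdlN had no peak in any list. Of their 50-base words (the read length), 68.7% to 89.1% occur once in the genome. Reads that map equally well to several places had been filtered out, which can hide peaks there. TwdlS, at 100%, had no peak either. Near TwdlF, TwdlG and TwdlV on the same arm the lists were split, as TwdlV had a peak in triptolide replicate 1 only and the other two in triptolide replicate 2 only.

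The Ccp84A genes form a cluster of 7 on the right arm of chromosome 3 (3R:6686728-6704903) with a median coding GC content of 64.9%, the second highest of the families. Ccp84Ac had folds of 3.70 and 4.00 and Ccp84Af of 3.80 and 4.25 in triptolide replicates 1 and 2. Ccp84Ae had the longest covered stretch of the family over both triptolide lists together, 355 and 589 bp against 359 and 423 bp for Ccp84Af, and uneven values, with folds of 2.97 and 5.32 and ranks of 15.8% and 95.3%. Ccp84Ad had a peak in triptolide replicate 2 only, at a fold of 4.40. Ccp84Aa, Ccp84Ab and Ccp84Ag had none. Their coding GC content was 64.9%, 64.9% and 67.4%, above the 61.0%, 62.1% and 63.2% of Ccp84Ac, Ccp84Af and Ccp84Ae. Ccp84Ad stood at 65.3%. Only 60.6% and 64.5% of the 50-base words of Ccp84Aa and Ccp84Ab occur once in the genome. Reads that map equally well to several places had been filtered out, which can hide peaks at these 2 genes.

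Cpr92F was the highest-ranking Cpr gene and the one with the longest stretch under peaks. The peaks spanned 969 bp at 3R:20671263-20672231 and 1045 bp at 3R:20671225-20672269, with folds of 4.54 and 5.00, and the summits lay at bases 349 and 396 of 1146 coding bases. Cpr62Bc had folds of 3.67 and 4.78, with summits at bases 422 and 405 of 543. Cpr100A, near the end of the right arm of chromosome 3, had folds of 4.09 and 4.46, with summits at bases 587 and 543 of 726. Cpr49Ac, on the right arm of chromosome 2, had folds of 3.63 and 4.52, and its summits lay late, at bases 811 and 905 of 975. The other Cpr genes with a peak in both triptolide lists were Cpr30F, Cpr50Ca, Cpr64Ad and Cpr92A. Cpr50Ca was counted through S-Lap7, a gene inside one of its introns, since all 4 of its triptolide summits (1 and 3 in the replicates) lay in the coding sequence of S-Lap7 and none in its own.

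Several tandem groups had no peak. Of 19 groups with at least 3 of these genes spaced by up to 10000 bp, which together hold 97 genes, 7 held a gene with a peak in both triptolide lists and 8 had no triptolide peak at all. The largest group, 17 Lcp and Cpr genes at cytological position 65A (3L:6130386-6161589), had no peak in any list. Its median coding GC content was 56.8%, and the richest 300 bp of its genes had a median of 54.0%. Reads that map equally well to several places had been filtered out, which can hide peaks at near-identical copies. Of 50-base words (the read length) the share that occurs once in the genome was 0% for Lcp65Ab1, Lcp65Ab2, Cpr65Ax1 and Cpr65Ax2 and 29.9% to 38.9% for Lcp65Ag1, Lcp65Ag2 and Lcp65Ag3. The other 10 of the 17 genes were 95.3% to 100% unique and had no peak either. Over all 134 genes, 15 were under 90% unique and 7 under 50%, and all of those 7 are in the 65A group. None of the 15 genes had a peak in any list. Leaving them out therefore changed only the number of genes over which the shares are taken. The share with a peak then rose by 26.1 percentage points after triptolide, compared with 23.1 for all 134. The gap to all protein-coding genes was not computed again without them. The 4 Lcp genes from Lcp1 to Lcp4 had a single peak, at Lcp1 in triptolide replicate 2, with a fold of 4.11 and its summit at base 259 of 393.

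The triptolide peaks lay in the coding sequence. In triptolide replicate 1, 25 of 28 peaks at these genes had their summit in the coding sequence of the gene (89.3%, 72.8 to 96.3%), 2 in an intron and 1 upstream. In triptolide replicate 2, 31 of 37 did (83.8%, 68.9 to 92.3%), with 4 in an intron and 2 upstream. None lay in an untranslated region or downstream. Coding sequence made up 26.7% of the 355660 bp of these genes and their 500 bp flanks. Of the 9 summits outside, 4 were those of S-Lap7 within Cpr50Ca, 2 those upstream of Cp16, 2 lay in introns of the P450 reductase gene, and 1, upstream of Cp190, lay in the coding sequence of its neighbour CG4338.

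Counted by gene, 25 and 31 of the 134 genes had a summit in their own coding sequence in triptolide replicates 1 and 2, or 18.7% and 23.1%. The same was true of 24.1% and 25.3% of all protein-coding genes. In mock, 1 and 1 of the 134 genes had such a summit, 0.746% in each replicate, against 0.458% and 1.27% of all genes. The share of peaks at these genes with the summit in their coding sequence was 11.5 percentage points higher after triptolide than in mock, but the mock side rests on 1 and 2 peaks (exact permutation test, two-sided, p = 1), and leaving out Cpr and Cp190 turned it to −9.42. Over peaks at all protein-coding genes, summits in coding sequence of any protein-coding gene made up 7.24% and 11.2% in mock and 87.0% and 91.3% after triptolide. Counted in that way, 26 of 28 and 35 of 37 triptolide peaks at cuticle and eggshell genes had their summit in coding sequence.

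Along the coding sequence the summits were spread widely, with medians near the middle. With 0 at the start codon and 1 at the stop codon, introns removed, the median position was 0.584 (quartiles 0.408 and 0.740, n = 25 peaks) in triptolide replicate 1 and 0.486 (0.324 and 0.670, n = 31 peaks) in triptolide replicate 2. With the coding sequence divided into 3 equal parts from the start codon, the summits numbered 5, 11 and 9 in triptolide replicate 1 and 8, 15 and 8 in triptolide replicate 2. The earliest was TwdlT at 0.133 and the latest Cpr49Ac at 0.928. The median distance from the summit of all peaks to the nearest start site of the gene was 437.5 and 443 bp. Many cuticle genes begin with a very short coding exon, and of the summits in genes with more than 1 coding exon, 20 and 26, only 0 and 1 fell in the first. The longest coding exon held 24 of 25 and 30 of 31 summits.

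**Figure D3:**
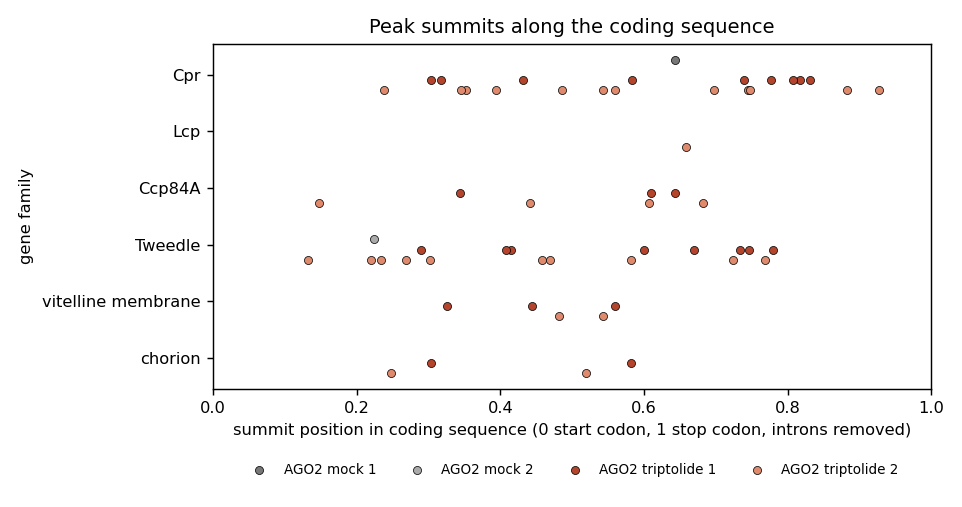
Position of each AGO2 peak summit along the coding sequence (horizontal axis, 0 at the start codon and 1 at the stop codon, introns removed) by gene family (vertical axis). Each point is 1 peak, coloured by list and offset by list for legibility. Triptolide summits spread from 0.133 to 0.928 with medians of 0.584 and 0.486, and the 2 mock summits in coding sequence were at Cpr47Ee and TwdlO.

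The DNA of these sites was rich in G and C. Peaks at cuticle and eggshell genes had a median GC content of 61.9% and 62.2% in triptolide replicates 1 and 2, against 59.1% and 59.9% for peaks at all protein-coding genes in the same lists. The mock medians were 56.7% and 57.8%, from 1 and 2 peaks. The mean of the triptolide medians exceeded that of mock by 4.84 percentage points of GC (exact permutation test, two-sided, p = 0.333, again the lowest p attainable), and both triptolide medians lay above both mock values. Over all protein-coding genes the mock peaks were at 51.1% and 48.8%. The triptolide peaks at cuticle and eggshell genes ranged from 53.2 to 68.1% in replicate 1 and from 53.0 to 72.3% in replicate 2, the lowest being those of the P450 reductase gene and the highest those of Vm26Aa and TwdlT.

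Within a gene the summit window was among the richer ones in GC. The 300 bp around the summit had a median GC content of 62.7% in both triptolide lists (28 and 36 peaks, at 28 and 34 genes, without the peak of Cp190, whose summit lay beyond the 500 bp flank), while the median window of the same genes and flanks had 46.7% and the richest window 64.8%. The summit window was richer than 92.6% and 93.0% of the windows of its gene (medians), and richer than at least 90% of them in 17 of 28 and 28 of 36. Most of these summits lay in coding sequence, which had a median GC content of 58.9%, against 44.3% for the genes with their flanks. Whether the summits were richer than other coding positions of the same genes was not tested. Averaged over summits in 100 bp windows, GC content was 62.8% and 65.1% at the summit and fell to 40.0% and 42.2% at 500 bp toward lower coordinates and to 44.1% and 44.3% at 500 bp toward higher ones, without regard to the strand of the gene. Peaks at all protein-coding genes had a flatter profile, from 60.9% and 62.0% at the summit to 45.4% and 46.1% on the lower side and 45.5% and 46.1% on the higher side. The cuticle and eggshell genes are shorter, with a median span of 970 against 2164.5 bp, and the part of length in this was not tested. GC content is also known to affect how well DNA is amplified and sequenced, and its part in these peaks was not tested.

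**Figure D4:**
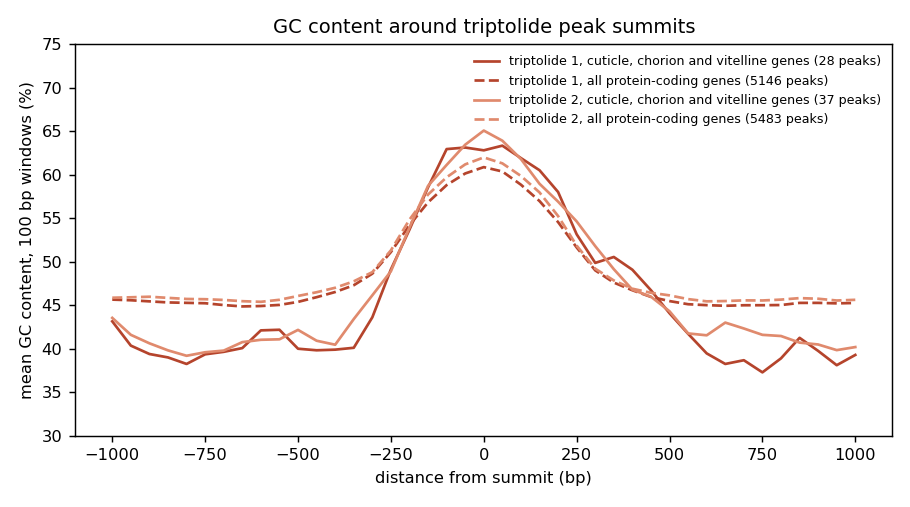
Mean GC content (vertical axis, percent, in 100 bp windows) by distance from the AGO2 peak summit (horizontal axis, bp, negative values toward lower coordinates of the chromosome) in the 2 triptolide lists. Solid lines are peaks at the cuticle, chorion and vitelline membrane genes and dashed lines are peaks at all protein-coding genes. The solid lines reach 62.8% and 65.1% at the summit and stand at 40.0% and 42.2% at −500 bp, below the dashed lines there at 45.4% and 46.1%.

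Coding GC content and length were set beside presence of a peak. The 24 genes with a peak in both triptolide lists had a median coding GC content of 62.1% (quartiles 58.7 and 63.4), the 18 with a peak in 1 list 60.0%, and the 92 with no triptolide peak 58.0% (55.3 and 60.0). Their median spans were 1009.5, 1127.5 and 889.5 bp, and their median coding lengths 658.5, 750 and 529.5 bp. Genes with a peak were thus both richer in GC and longer at the median. The set as a whole is rich in GC and short, with a median coding GC content of 58.9% against 53.8% for all protein-coding genes and a median span of 970 against 2164.5 bp. The vitelline membrane genes had the highest median coding GC content of the families, 66.4%, and the Cpr genes the lowest, 57.8%.

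At the same coding GC content, cuticle and eggshell genes carried peaks less often than other genes in every bin, though the intervals separate in only some of them. Of genes with a coding GC content of 55 to 60%, 7 of 64 cuticle and eggshell genes (10.9%, 5.40 to 20.9%) and 39.1% of other protein-coding genes had a peak in both triptolide lists. From 60 to 65% the shares were 13 of 41 (31.7%, 19.6 to 47.0%) and 53.1%. From 50 to 55% they were 2 of 19 (10.5%) and 14.2%, under 50% 0 of 3 and 4.03%, and at 65% or more 2 of 7 (28.6%) and 46.5%. Most of these genes are short, and among genes spanning up to 2 kb the order turned: 20 of 110 cuticle and eggshell genes (18.2%, 12.1 to 26.4%) and 788 of 6425 others (12.3%, 11.5 to 13.1%) had a peak in both triptolide lists. With both limits together, a split chosen after the data were seen, the shares were 11.8% (6 of 51, 5.51 to 23.4%) and 24.8% at 55 to 60%, 32.4% (12 of 37) and 36.4% at 60 to 65%, and 33.3% (2 of 6) and 35.7% at 65% or more, which narrowed the gap in these bins. At 50 to 55% the shares were 0 of 13 and 7.25%, a wider gap than over all lengths. Genes are not replicates, and these shares describe the lists without a test.

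**Figure D5:**
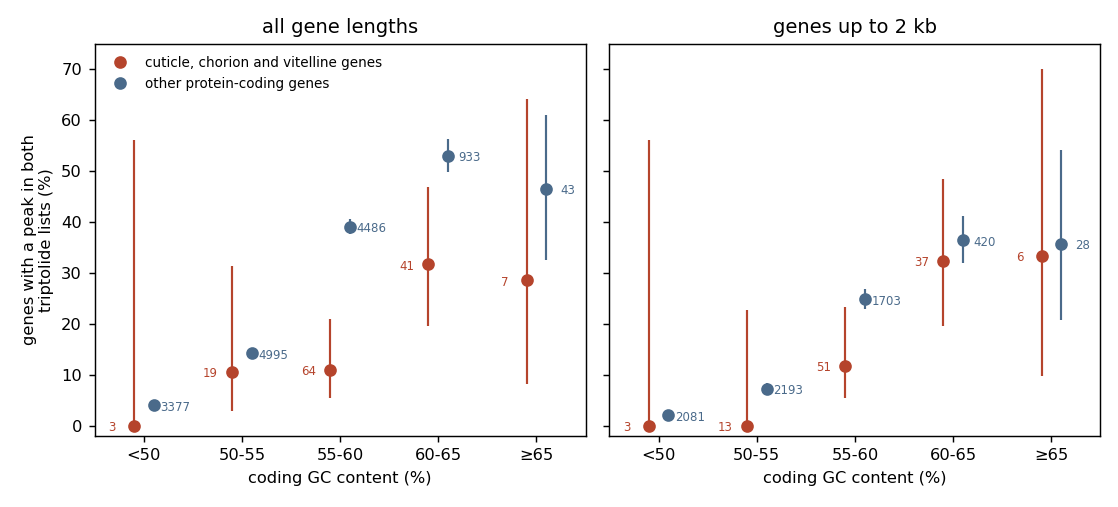
Share of genes with a peak in both triptolide lists (vertical axis, percent) by coding GC content (horizontal axis, percent), for cuticle, chorion and vitelline membrane genes and for other protein-coding genes, over all gene lengths (left) and for genes up to 2 kb (right). Points are shares, lines are Wilson 95% intervals and printed numbers are genes per bin. In the 60 to 65% bin the shares were 31.7% and 53.1% over all lengths and 32.4% and 36.4% up to 2 kb.

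The richest 300 bp of a gene ordered the set more sharply, in bins that were also chosen after the data were seen. No gene of 17 whose richest window was under 55% had a peak in both triptolide lists, 1 of 25 did from 55 to 60%, 11 of 60 (18.3%) from 60 to 65% and 12 of 32 (37.5%, 22.9 to 54.7%) at 65% or more. Other protein-coding genes rose over the same bins from 0.788% through 7.71% and 35.0% to 66.2%. A longer gene offers more windows, so gene length moves with this measure.

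Peak strength at these genes was close to that of other genes in the triptolide lists. The median fold enrichment was 3.53 and 3.64 in triptolide replicates 1 and 2, with ranges of 2.38 to 6.21 and 2.39 to 6.05, and peaks at all protein-coding genes had medians of 3.38 and 3.45. The median rank within the list was 59.2% and 49.2%, and the median −log10 q-value 4.37 and 3.87. Peaks at these genes were 0.501% and 0.630% of the triptolide lists (28 and 37 peaks) and 0.0948% and 0.104% of the mock lists (1 and 2 peaks).

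The mock peaks were 3 in all and weak within their lists. A single peak in mock replicate 1, at 2R:11266252-11266549, was counted for both Cpr47Ee and Cpr47Ef, and had a fold of 4.28 and a rank of 9.57%. Its summit lay at base 715 of the 1110 coding bases of Cpr47Ee. No triptolide peak was present at any of the 7 genes of this 47E group. In mock replicate 2, TwdlO had a peak at 3R:26626362-26626661 with a fold of 3.48 and a rank of 2.45%, and its summit lay at base 155 of 690. The third mock peak, in mock replicate 2 at 2L:6339282-6339629, lay in an intron of the P450 reductase gene Cpr, with a fold of 3.31 and a rank of 19.2%. That gene was the only one of the 134 with a peak under both treatments, with folds of 3.08 at 2L:6339019-6339531 and 3.15 at 2L:6341875-6342159 in triptolide replicates 1 and 2, and the last of these did not overlap the other two. Cp190 had 1 peak, in triptolide replicate 2, with a fold of 2.39 and a rank of 1.98%, and Cp110 had none.

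Other genes of the same tissues and 2 reference families were set beside these shares. Of 40 further cuticle and eggshell genes, for chitin synthesis and its enzymes, pigment and hardening, and eggshell assembly, 38 were matched by symbol. They had a peak in 2.63% and 2.63% of genes in mock and in 26.3% and 34.2% after triptolide, and 8 (21.1%) had one in both triptolide lists. Those 8 were kkv (chitin synthase), e and b (both needed for cuticle pigment), obst-E (a chitin-binding protein), rtv, psd and clos (the last 2 known from the eggshell) and yellow-g. Acp1, an adult cuticle gene, had no peak in any list at a coding GC content of 66.2%. The 92 cytosolic ribosomal protein genes were taken by symbol, from a family that growing cells transcribe, and transcription of each was not measured. They had a peak in 1.09% and 3.26% in mock and 33.7% and 35.9% after triptolide, with a median coding GC content of 58.4%. The 179 odorant, gustatory and ionotropic receptor genes, expressed in sensory neurons, had 0% and 0.559% in mock and 5.59% and 4.47% after triptolide, with a median coding GC content of 47.3%. The ribosomal protein genes and the further cuticle and eggshell genes thus stood near the 31.5% and 32.0% of all protein-coding genes after triptolide, and the receptor genes below it.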

How the data were processed

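The study's methods say that the authors trimmed 50 bp single-end reads with cutadapt, aligned them with Bowtie2, kept a mapping quality of at least 20 and marked duplicate reads for removal with Picard. MACS2 then called the peaks of each replicate against its own input. The submitters' processing notes give cutadapt 1.10, Picard 2.11.0 and MACS2 2.1.1.20160309. The deposited score equals 10 times the −log10 q-value cut to a whole number (0 exceptions), the deposited fold is a ratio of signal over local background at the summit, and the deposited lists further hold −log10 p-values and q-values. A pooled call, the inputs and reads were not used here, so depth is unknown and the study's read-level comparison was replaced by presence in lists. From its read-level comparison the paper reports far more AGO2 sites lost than gained after triptolide. The lists used here go the other way, being longer after triptolide, and the reason was not tested.

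Coordinates are dm6 and genes are those of Ensembl release 115 (BDGP6.54, the same Release 6 assembly; 0 peaks passed a chromosome end). Coding position used the transcript with the longest coding sequence. A rank is the percentile of a peak's score within its list, with ties averaged. Lists were compared by two-sided exact permutation tests, 2 against 2, which cannot go below 0.333. Intervals are Wilson 95% and cover counting error over genes or peaks only. Scripts used Python 3.11.15, numpy 2.4.6, pandas 2.3.3 and matplotlib 3.10.9, and were tested on simulated data.

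Named genes were the 10 with the highest mean rank among those with a peak in both triptolide lists, every gene with a mock peak, Vm34Ca, Cp190 and Cpr, and the longest covered gene of each family. Other names were chosen after their values were seen. Members and lists were chosen with earlier results of these data known. Alternatives were another window (0 or 1000 bp), summits in place of peaks, equal numbers of peaks, a −log10 q-value of at least 5, the replicate block, leaving out each replicate, leaving out Cpr and Cp190, and a background of genes up to 2 kb.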

Additional observations from a re-analysis of the deposited data

How the results depend on the processing

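Of 73 values under alternatives, 9 changed sign, and the rise in the share of cuticle and eggshell genes with a peak kept its direction in all that were run for it. It ranged from 20.9 to 25.4 percentage points with 1 replicate left out, but shrank to 3.73 with equal numbers of peaks and to 7.09 at a −log10 q-value of at least 5. The change in the gap to all genes (−0.645) reversed with overlap of the gene itself (1.55), summits in place of peaks (0.176), equal numbers (1.16), the stricter q-value (2.34), without mock replicate 1 (1.44), without triptolide replicate 1 (1.34) and against genes up to 2 kb (5.00), and ranged from −2.73 to 1.44 with 1 replicate left out. The share with a peak in both triptolide lists and no mock list (17.2%) moved to 2.24% with equal numbers, 2.99% at the stricter q-value and 26.1% without triptolide replicate 1, where only 1 list has to hold the peak. The coding share difference (11.5) turned to −9.42 without Cpr and Cp190 and to −13.5 without mock replicate 2, with a range of −13.5 to 36.5, because the mock lists held 1 and 2 peaks. With 1 replicate left out, the GC difference ranged from 4.31 to 5.37 and the median coding position from 0.486 to 0.584. Equal numbers and the stricter q-value gave no coding share or GC difference, as a mock list then held no such peak.

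Replicate numbers were not shown to pair the samples (r = −0.00687 across 13968 genes, which are not independent). With the replicate block the differences were 23.1, −0.645, 11.5 and 4.84, with exact sign-flip p = 0.5, 1, 1 and 0.5, of which 0.5 is the smallest possible. Alternatives added after seeing the data gave 22.9 without the 3 genes that share only the name and 22.0 without peaks in coding sequence of other genes, beside 23.1. Without genes under 90% unique, none of which had a peak, the difference was 26.1.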
